A study of Mus musculus with 6 samples.

Results

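The nuclear-encoded genes of the mitochondrial respiratory chain and of ATP synthase were compared between control and *HOXA13*-overexpressing KH2 mouse embryonic stem cells (mESCs). The rule takes genes by symbol and a minimum of counts and uses no fold change: Nduf genes of complex I, the Sdh genes of complex II, Uqcr genes of complex III, Cox4 to Cox8 genes of complex IV and Atp5 genes of ATP synthase. Of the 24393 features counted, 84 symbols matched, and 81 of them had at least 10 counts summed over the 6 libraries. These 81 members are 36 genes of complex I, 4 of complex II, 8 of complex III, 16 of complex IV and 17 of ATP synthase. The symbols left out for low counts were *Cox8b* and *Ndufs5*, which had 0 counts in every library, and *Cox4i2*, which had 9 counts in all.

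KH2 is a mouse embryonic stem cell line made for targeting a transgene that doxycycline switches on, and the study placed human *HOXA13* in it to follow what the factor does to cell fate. RNA-seq was done on 3 control and 3 *HOXA13*-overexpressing libraries, labelled with the genotypes CONTROL and *HOXA13*, the strain C57/BL/6 and the cell type embryonic stem cell in both groups. Cells of both groups were non-differentiated, grown with serum and LIF on irradiated 3T3-Swiss albino fibroblasts, and the labels state that no treatment was given, so whether doxycycline was added to the sequenced cultures is not given in the sources used here. The overexpressing cells are targeted clones, the study describes the 3 cultures of each group as biological replicates, and the p-values below measure the spread between these 6 libraries only.

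The respiratory chain passes electrons from NADH (complex I) and succinate (complex II) through ubiquinone to complex III, then through cytochrome c to complex IV, where oxygen is reduced. Complexes I, III and IV pump protons across the inner mitochondrial membrane, and ATP synthase lets them flow back through its membrane ring to drive ATP production. Most subunits are encoded in the nucleus and imported, a few core subunits are encoded in mitochondrial DNA and were not analysed here, and pluripotent stem cells are known for relying heavily on glycolysis beside this chain.

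The libraries held 14608681 to 21766589 counts in control and 13494135 to 20374341 counts in the *HOXA13*-overexpressing group. The feature with the human Ensembl identifier ENSG00000106031, which the files do not pair with a symbol, had 6, 0 and 0 counts in the controls against 4298, 4177 and 2881 in the *HOXA13*-overexpressing libraries. The embryonic stem cell label was borne out by its markers, with *Pou5f1* between 633 and 783 CPM in every library. All 10 listed stem cell markers were measurable, of which 5 were higher and 1 was lower in the *HOXA13*-overexpressing group. Control libraries differed among themselves in 12 mesendoderm markers, genes of cells that begin to differentiate, whose summed level was 475, 46.9 and 214 CPM in control and 21.5 to 24.4 CPM in the *HOXA13*-overexpressing libraries, with 6 of 9 tested markers lower. *Mesp1* was at 0 in control replicate 2 and in every *HOXA13*-overexpressing library. In these markers control replicate 2 thus stood nearer to the *HOXA13*-overexpressing libraries than the other controls did. The 15 fibroblast markers, of which 1 (*Pdgfra*) differed and was lower, summed to between 11363 and 16805 CPM in control and between 14685 and 18102 CPM in the *HOXA13*-overexpressing libraries with overlap between the groups, led by *Fn1*, *Col1a1* and *Col1a2*, while *Lum* stayed under 0.77 CPM. The cultures held fibroblast feeder cells, and which cells gave this RNA was not tested. In these bulk libraries a change in the share of a cell type and a change in the RNA per cell cannot be told apart, and the part of these markers in the results below was not tested.

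Most respiratory chain genes had slightly higher values in the *HOXA13*-overexpressing cells, few by much. The test was passed by 15 genes, 14 of them higher and 1 lower, a share of 19.5% against 27.7% of all genes tested. Levels are given as CPM, counts scaled to the library size with edgeR's TMM factors, which compares libraries but not genes of different length. Summed over the 81 members, the level was 9204, 9705 and 9240 CPM in the control libraries and 10652, 10697 and 10577 CPM in the *HOXA13*-overexpressing libraries. All 3 *HOXA13*-overexpressing libraries lay above all 3 control libraries, with a mean of 10642 ± 60.2 CPM (SD, n = 3) against 9383 ± 279.6 CPM (SD, n = 3), which is 13.4% higher. The excess was 13.8% without *Atp5b* and *Atp5a1*, the most abundant members by CPM, and 12.0% without the members on chromosome 1. The size of the excess depends on the scaling. As a share of all counts, with no TMM factors, the members took 0.948% to 0.978% in control and 1.03% to 1.045% in the *HOXA13*-overexpressing group, which is 7.91% higher, and 6.5% higher without chromosome 1. The groups did not overlap on either scale.

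Of the 81 members, 77 passed the filter on low counts and were tested with edgeR's quasi-likelihood test among 13846 genes. Of the 77, 67 had a log2 fold change above 0, the median was 0.13 (9.65% higher) against 0.00 over all genes tested (0.059 against -0.073 with library size alone), and 64 lay between -0.1 and 0.3. The threshold was an adjusted p under 0.05. Higher in the *HOXA13*-overexpressing group were 14 members (18.2%, against 14.4% of all genes), and lower was 1 member, *Sdhd* (1.3%, against 13.3% of all genes). The groups did not overlap in 40 of the 77 members (51.9%, against 45.7% of all genes), and in 39 of these 40 the *HOXA13*-overexpressing libraries were the higher ones. An unadjusted p under 0.05 was reached by 25 tested members, 24 of them higher and *Sdhd* lower, so that outside complex II no tested member was lower at that level either. The share of all genes at that level is not given here. With limma-voom 16 members were higher and 1 lower, and with DESeq2 13 were higher and 2 lower. Leaving out control replicate 2, the control nearest to the *HOXA13*-overexpressing libraries in the mesendoderm markers, gave 18 higher and 2 lower members. Leaving out control replicate 1 or 3 gave 14 or 7 higher and 1 lower. Leaving out *HOXA13* replicate 1, 2 or 3 gave 6, 7 and 7 higher and 0, 1 and 1 lower, the lower one then being *Ndufa4l2*, which the filter on low counts leaves out when all 6 libraries are used, and not *Sdhd*. The share of all genes called went from 27.7% to 35.5% without control replicate 2, to 30.9% and 18.4% without control replicate 1 and 3, and to 14.5%, 14.9% and 16.3% without *HOXA13* replicate 1, 2 and 3. Scaling by library size alone gave 9 members higher and 1 lower, and turned the split of all genes from 1994 higher and 1842 lower to 1576 higher and 2500 lower.

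**Figure D1:**
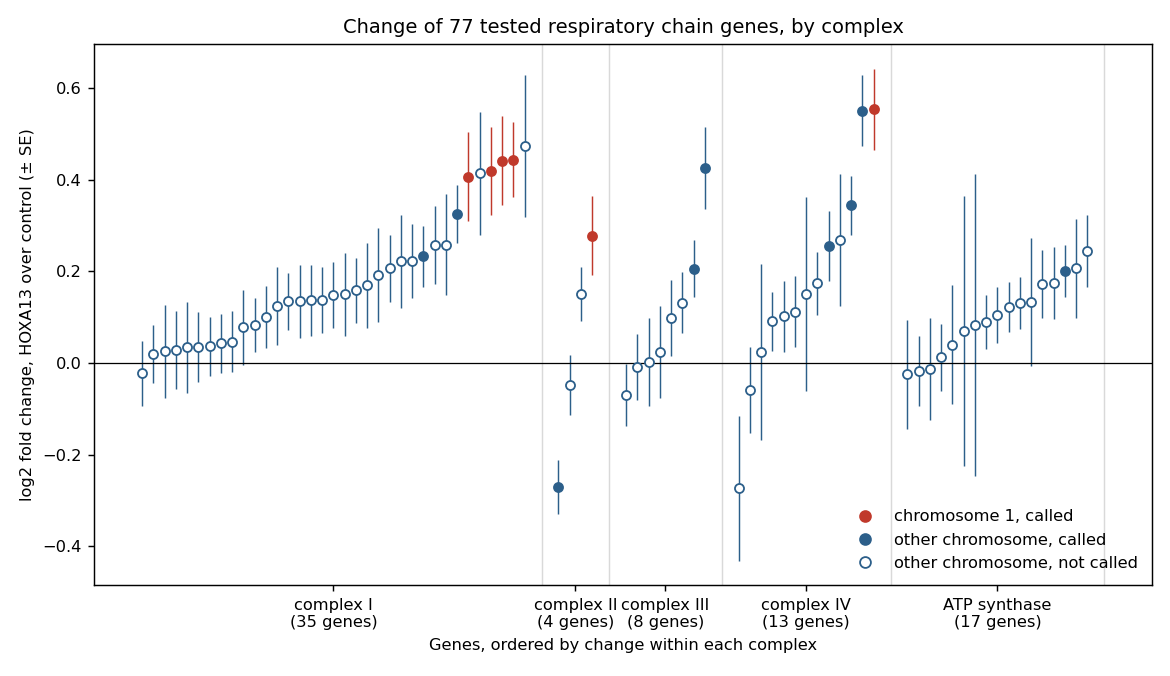
Log2 fold change (*HOXA13*-overexpressing over control) of each of the 77 tested respiratory chain genes, as points with the standard error as bars, ordered by change within each complex. Filled points passed an adjusted p of 0.05 and red points lie on chromosome 1. Most points lie above 0, 34 of 35 in complex I, and the filled points below 0 are limited to *Sdhd* in complex II.

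The promoters of respiratory chain genes are known to be bound by NRF1, GABP, YY1 and oestrogen-related receptors (ERR). RefSeq windows on build GRCm38.p6, 250 bases before to 50 bases after the gene start, were found for 67 of the 81 members and searched on both strands for the letters GCATGCGC (NRF1), ACCGGAAGT (GABP), AAGATGGCG (YY1) and TCAAGGTCA (ERR), no motif being contained in another. The NRF1 letters were in 10 members (14.9%, against 3.94% of 17492 protein-coding genes), the YY1 letters in 8 (11.9%, against 2.14%), the ERR letters in 2 (2.99%, against 0.377%) and the GABP letters in 1 (1.49%, against 1.59%). Any of the 4 was in 21 members (31.3%, against 7.72%). Of the 14 members called higher, 8 had a window and 0 of the 8 held any of the letters, while *Sdhd*, the member called lower, held the ERR letters. *Atp5g3*, the other member with the ERR letters, was not called (log2 fold change 0.089, adjusted p = 0.297). A link between letters and change was not tested. A match is a run of letters and not a measured binding site, and no match says only that the letters are not in the window.

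Windows are shown for a called and an uncalled member of complexes II, IV and I, with matches in capitals. The uncalled ones shown all hold letters, which is not typical of their complexes. Of the tested uncalled members with a window, 1 of 8 in complex IV, 9 of 27 in complex I and 1 of 2 in complex II hold any. *Sdhd* (chr9:50603800-50604099, minus strand) holds the ERR letters on the opposite strand 37 bases past the start, and *Sdhb* (chr4:140961021-140961320, plus strand) holds the NRF1 letters at -54. *Cox6b1* (chr7:30626065-30626364, minus strand) holds none, and *Cox6a1* (chr5:115348909-115349208, minus strand) holds NRF1 letters on both strands from -162, which overlap in a palindrome. *Ndufb8* (chr19:44555393-44555692, minus strand) holds none, and *Ndufs6* (chr13:73328433-73328732, minus strand) holds the YY1 letters 34 bases past the start. Each line runs 5′ to 3′ along the gene's own strand, and all other gene positions given are on mm9.
Sdhd: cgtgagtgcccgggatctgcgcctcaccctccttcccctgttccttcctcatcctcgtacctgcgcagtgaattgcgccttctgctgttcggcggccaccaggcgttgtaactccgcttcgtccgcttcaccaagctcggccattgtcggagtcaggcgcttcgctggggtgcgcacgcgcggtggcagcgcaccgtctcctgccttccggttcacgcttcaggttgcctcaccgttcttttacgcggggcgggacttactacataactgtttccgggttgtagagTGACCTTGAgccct
Sdhb: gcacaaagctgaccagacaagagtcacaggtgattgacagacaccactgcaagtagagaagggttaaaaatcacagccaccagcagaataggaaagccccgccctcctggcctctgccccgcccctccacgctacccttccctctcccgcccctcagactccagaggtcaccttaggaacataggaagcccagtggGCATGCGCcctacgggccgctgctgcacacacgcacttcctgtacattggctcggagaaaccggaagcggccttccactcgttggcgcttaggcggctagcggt
Cox6b1: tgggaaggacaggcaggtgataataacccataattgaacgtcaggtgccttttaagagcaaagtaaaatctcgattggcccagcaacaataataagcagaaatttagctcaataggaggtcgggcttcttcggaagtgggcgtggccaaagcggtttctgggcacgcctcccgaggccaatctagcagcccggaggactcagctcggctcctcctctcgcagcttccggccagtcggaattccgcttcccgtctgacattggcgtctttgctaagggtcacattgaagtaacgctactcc
Cox6a1: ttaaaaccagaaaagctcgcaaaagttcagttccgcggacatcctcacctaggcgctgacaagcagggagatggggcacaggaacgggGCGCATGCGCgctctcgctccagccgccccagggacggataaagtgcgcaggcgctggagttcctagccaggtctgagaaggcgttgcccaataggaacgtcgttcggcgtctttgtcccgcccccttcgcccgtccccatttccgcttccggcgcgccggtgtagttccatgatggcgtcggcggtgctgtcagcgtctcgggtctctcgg
Ndufb8: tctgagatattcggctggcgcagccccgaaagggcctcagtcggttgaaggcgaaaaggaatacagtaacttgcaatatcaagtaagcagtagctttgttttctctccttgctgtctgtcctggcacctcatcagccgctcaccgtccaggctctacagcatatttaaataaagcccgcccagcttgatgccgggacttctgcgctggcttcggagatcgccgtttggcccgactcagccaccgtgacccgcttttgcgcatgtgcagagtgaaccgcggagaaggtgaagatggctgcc
Ndufs6: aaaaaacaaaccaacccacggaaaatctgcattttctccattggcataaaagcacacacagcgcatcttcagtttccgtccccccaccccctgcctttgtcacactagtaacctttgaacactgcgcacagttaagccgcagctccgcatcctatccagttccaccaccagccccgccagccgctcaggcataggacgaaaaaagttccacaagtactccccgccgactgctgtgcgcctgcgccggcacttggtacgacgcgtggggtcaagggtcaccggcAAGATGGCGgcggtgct

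Complex I takes electrons from NADH at its matrix arm and pumps protons through its membrane arm. Its members lay above 0 as a rule but not by much, at 34 of 35 tested genes with a median log2 fold change of 0.15. Called higher were 6 genes (17.1%, against 14.4% of all genes) and called lower 0 (against 13.3%). The summed level of the complex was 2113 ± 83.3 CPM in control and 2436 ± 8.6 CPM in the *HOXA13*-overexpressing group (SD, n = 3), 15.3% higher. Without its 4 genes on chromosome 1, a chromosome whose genes were shifted upwards as a whole, the excess was 8.74%, with no overlap between the groups. As a share of all counts the complex was 9.67% higher.

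*Ndufs1*, the largest core subunit with several iron-sulfur clusters and the complex I gene with the highest CPM, lies at chr1:63190170-63223396, minus strand (mm9). It was at 193, 243 and 193 CPM in the control libraries and 291, 271 and 270.0 CPM in the *HOXA13*-overexpressing libraries. The *HOXA13*-overexpressing libraries lay above all control libraries, and control replicate 2 was the highest control. The rise passed the test (SE, standard error; log2 fold change 0.41, SE 0.097, adjusted p = 0.0169), and the call was lost without control replicate 3, without any one *HOXA13*-overexpressing library and with each chromosome centred on its own median (adjusted p = 0.704).

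The accessory subunits *Ndufa10* and *Ndufb3* lie on the same chromosome. *Ndufa10*, a subunit of the nucleoside kinase family (chr1:94335587-94370437, minus strand), was at 105, 126 and 96.6 CPM in control and 148, 151 and 146 CPM in *HOXA13*-overexpressing libraries (log2 fold change 0.44, SE 0.097, adjusted p = 0.0119). *Ndufb3*, a small membrane arm subunit (chr1:58643228-58652808, plus strand), was at 24.7, 28.7 and 23.5 CPM in control and 35, 33 and 34.6 CPM in *HOXA13*-overexpressing libraries (log2 fold change 0.42, SE 0.096, adjusted p = 0.0145). Neither gene had any overlap between the groups. *Ndufa10* lost its call without *HOXA13* replicate 1 or 2, and *Ndufb3* lost it without control replicate 3 or *HOXA13* replicate 1 or 3. Both lost it with each chromosome centred (adjusted p = 0.498 for *Ndufa10* and 0.71 for *Ndufb3*).

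*Ndufb8*, a membrane arm subunit often used to follow complex I on blots, lies on chromosome 19 and was at 68.3, 74.4 and 69.8 CPM in control and 88, 88.5 and 89.6 CPM in *HOXA13*-overexpressing libraries (log2 fold change 0.32, SE 0.064, adjusted p = 0.00764). Its 3 *HOXA13*-overexpressing libraries differed by less than 2 CPM and stood clear of the controls, and the call held under all 16 alternatives. *Ndufa13*, also known as Grim19, rose from 60.0 ± 2.01 to 70.6 ± 2.49 CPM (SD, n = 3; log2 fold change 0.23, adjusted p = 0.0339), a call that held in 10 of the 16 alternatives. Of its exonic bases, 30.2% are shared with *Tssk6* on the opposite strand.

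The next accessory subunits in the order of p missed the threshold narrowly. They were *Ndufa12* (log2 fold change 0.41, adjusted p = 0.0521), *Ndufb4* (log2 fold change 0.47, adjusted p = 0.0532) and *Ndufs6* (log2 fold change 0.26, adjusted p = 0.0541). In each of these the groups did not overlap. The flavoprotein genes *Ndufv1*, *Ndufv2* and *Ndufv3*, where NADH is oxidised, had log2 fold changes of 0.019, 0.082 and 0.14 and did not pass (adjusted p = 0.851, 0.337 and 0.196). Per length the complex I genes were uneven, from 4.91 RPKM (CPM per kilobase of the first annotated transcript) for *Ndufb2*, whose transcript there is 4371 bases long, to 238 RPKM for *Ndufa4* in control among those tested. *Ndufa4* was named as a complex I gene and its protein was later assigned to complex IV.

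Complex II, succinate dehydrogenase, is also the enzyme of the TCA cycle that oxidises succinate, and it pumps no protons. Of its 4 genes 1 was higher, 1 was lower and 2 did not pass, where 14.4% of all genes were higher and 13.3% lower. The catalytic flavoprotein *Sdha* was at 327, 345 and 315 CPM in the control libraries and 372, 355 and 369 CPM in the *HOXA13*-overexpressing libraries, and the iron-sulfur subunit *Sdhb* was at 83.6, 81.1 and 76.2 CPM in control and 78.5, 77.9 and 76.6 CPM in *HOXA13*-overexpressing libraries. *Sdha* did not overlap between the groups but did not pass (log2 fold change 0.15, SE 0.06, adjusted p = 0.0967), and *Sdhb* overlapped (log2 fold change -0.048, SE 0.065, adjusted p = 0.628).

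The membrane anchors *Sdhc* and *Sdhd* hold the haem and the ubiquinone site together. *Sdhc* (chr1:173057296-173080734, minus strand) was at 81, 95.7 and 77.5 CPM in control and 102, 102 and 104 CPM in *HOXA13*-overexpressing libraries. *Sdhd* (chr9:50404443-50411954, minus strand) was at 132, 135 and 125 CPM in control and 108, 109 and 108 CPM in *HOXA13*-overexpressing libraries. The *HOXA13*-overexpressing libraries were all above the controls in *Sdhc* and all below them in *Sdhd*. *Sdhc* was higher (log2 fold change 0.28, SE 0.087, adjusted p = 0.0459) and *Sdhd* was lower (log2 fold change -0.27, SE 0.06, adjusted p = 0.0123). The *Sdhd* call was lost when any one *HOXA13*-overexpressing library was left out (adjusted p up to 0.0618), and the *Sdhc* call was lost in 5 of the 6 such fits, all but the one without control replicate 2. The *Sdhc* call was also lost with library size alone and with the replicate block (adjusted p = 0.0893 and 0.0648), and with each chromosome centred its sign turned to that of *Sdhd* (log2 fold change -0.092, adjusted p = 0.325). Per length the 4 genes were at 114, 70.3, 26.7 and 102 RPKM in control (*Sdha*, *Sdhb*, *Sdhc* and *Sdhd*), and the summed CPM of the complex overlapped between the groups, at 594 to 657 CPM in control and 645 to 660.5 CPM in the *HOXA13*-overexpressing group.

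Complex III passes electrons from ubiquinol to cytochrome c. Of its 8 genes, 2 were higher (25%, against 14.4% of all genes) and 0 lower (against 13.3%), with a median log2 fold change of 0.061. The groups did not overlap in these 2 genes only (25%, against 45.7% of all genes). *Uqcrb*, a small subunit that binds ubiquinone (chr13:67001553-67006314, minus strand), was at 34.4, 40.8 and 34.5 CPM in control and 48.6, 47.8 and 50.9 CPM in *HOXA13*-overexpressing libraries (log2 fold change 0.43, SE 0.089, adjusted p = 0.00978). All *HOXA13*-overexpressing values lay above the controls, and the call held under all 16 alternatives. *Uqcrb* has copies elsewhere, since 43.0% of the 75-base windows of its transcript also occur at another place in mm9.

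*Uqcrc2*, a core subunit, rose from 194 ± 8.08 to 224 ± 8.90 CPM (SD, n = 3; log2 fold change 0.21, adjusted p = 0.0411), but this held in 7 of the 16 alternatives. Its partner *Uqcrc1*, the complex III gene with the highest CPM, was at 308, 331 and 289.8 CPM in control and 329, 349 and 339 CPM in *HOXA13*-overexpressing libraries. The groups overlapped in *Uqcrc1* and it did not pass (log2 fold change 0.13, adjusted p = 0.183). The Rieske iron-sulfur protein *Uqcrfs1* was at 124 ± 6.28 in control and 118 ± 5.16 CPM in the *HOXA13*-overexpressing group (log2 fold change -0.07, adjusted p = 0.483). The hinge protein *Uqcrh* and the small subunits *Uqcr10*, *Uqcrq* and *Uqcr11* had log2 fold changes of -0.0088, 0.0021, 0.025 and 0.098, none past the threshold.

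Complex IV, cytochrome c oxidase, had the largest difference in percent of the 5 complexes in summed level, though not in CPM, with 1304 ± 76.0 CPM in control and 1637 ± 28.7 CPM in the *HOXA13*-overexpressing group (SD, n = 3), 25.5% higher. Without *Cox4i1* the excess was 13.1%, below the 15.3% of complex I with all its genes. Without members on chromosome 1 the excess was 25.2% in complex IV and 8.74% in complex I. As a share of all counts complex IV was 19.4% and complex I 9.67% higher. Of 13 tested genes 4 were higher (30.8%, against 14.4% of all genes) and 0 lower (against 13.3%), with a median log2 fold change of 0.15. *Cox4i1*, the subunit that binds the mitochondrially encoded core early in assembly and senses ATP (chr8:123192190-123198109, plus strand), was at 437, 527 and 498 CPM in the control libraries and 705, 728 and 707 CPM in the *HOXA13*-overexpressing libraries. The lowest *HOXA13*-overexpressing library stood well above the highest control. Its change (log2 fold change 0.55, SE 0.077, adjusted p = 0.00166) held under all 16 alternatives, and its share of the summed CPM of all members went from 5.19% to 6.70%.

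*Cox5b*, a zinc-binding subunit on the matrix side (chr1:36748332-36750230, plus strand), was at 23.1, 24.7 and 20.9 CPM in control and 33.8, 33.1 and 33.9 CPM in *HOXA13*-overexpressing libraries (log2 fold change 0.55, SE 0.089, adjusted p = 0.00307). *Cox6b1*, which faces the intermembrane space near the cytochrome c site (chr7:31401993-31411170, minus strand), was at 107, 112 and 115 CPM in control and 135, 142 and 147 CPM in *HOXA13*-overexpressing libraries (log2 fold change 0.34, SE 0.065, adjusted p = 0.00625). Neither gene overlapped between the groups. Both calls held in all 6 fits that left out a library, and *Cox6b1* kept its call in all 16 alternatives, but with each chromosome centred *Cox5b* fell to a log2 fold change of 0.18 and lost its call (adjusted p = 0.144). In *Cox5b*, 50.6% of transcript windows have a copy elsewhere in mm9, and in *Cox6b1* none has.

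*Cox5a*, a matrix side subunit beside *Cox4i1*, rose from 151 ± 14.2 to 179.8 ± 1.81 CPM (SD, n = 3; log2 fold change 0.25, adjusted p = 0.0399) and kept its call in 8 of the 16 alternatives. Of its exonic bases, 38.7% are shared with Gm17596 on the opposite strand. *Cox6c*, *Cox6a1*, *Cox7a2l*, *Cox7b*, *Cox7a2*, *Cox7c* and *Cox8a* did not pass, with log2 fold changes from -0.059 (*Cox8a*) to 0.27 (*Cox6c*, adjusted p = 0.202).

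ATP synthase had the most RNA of the chain by CPM, between 4357 and 4527 CPM in control and between 4866 and 4957 CPM in the *HOXA13*-overexpressing group, 11.4% higher on average (5.99% as a share of all counts), and the fewest calls. Of its 17 tested genes 1 was higher (5.88%, against 14.4% of all genes) and 0 lower (against 13.3%), with a median log2 fold change of 0.10. *Atp5b*, the catalytic beta subunit of the F1 head (chr10:127520329-127527447, plus strand), was at 1998, 2121 and 2054 CPM in the control libraries and 2403, 2366 and 2324 CPM in the *HOXA13*-overexpressing libraries. The groups did not overlap and *Atp5b* was higher (log2 fold change 0.20, SE 0.056, adjusted p = 0.0315), yet the call was lost without control replicate 3, without each *HOXA13*-overexpressing library, with library size alone and with the replicate block (adjusted p up to 0.116). *Atp5b* made up 21.9% of the members' summed CPM in control and 22.2% in the *HOXA13*-overexpressing group.

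Its F1 partner, the alpha subunit *Atp5a1*, was at 1196 ± 27.8 in control and 1302 ± 24.9 CPM in the *HOXA13*-overexpressing group without overlap and did not pass (log2 fold change 0.12, adjusted p = 0.135). Of the other F1 genes, the gamma subunit *Atp5c1* (log2 fold change 0.13) and the epsilon subunit *Atp5e* (0.24, adjusted p = 0.051) did not overlap between the groups, and the delta subunit *Atp5d* did (-0.018). The 4 peripheral stalk genes *Atp5f1*, *Atp5h*, *Atp5j* and *Atp5o* and the 3 small membrane subunits *Atp5j2*, *Atp5k* and *Atp5l* gave no call. Per length *Atp5b* was the highest of all 84 symbols in control at 1074 RPKM, followed by *Cox4i1* at 718 RPKM, *Atp5a1* at 484 RPKM and *Atp5g3* at 341 RPKM. *Atp5s* and *Atp5sl* match by symbol, although *Atp5sl* is now named Dmac2 and known as a factor for building complex I, and neither passed (log2 fold changes 0.13 and 0.012).

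**Figure D2:**
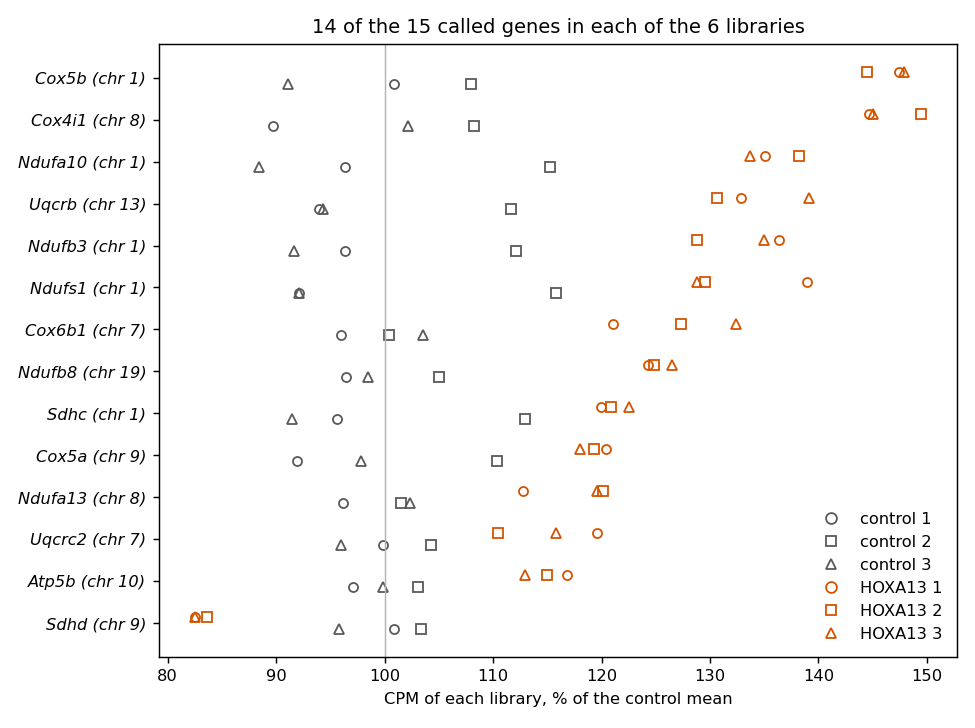
CPM of 14 of the 15 called genes in each of the 6 libraries, as a percentage of the gene's mean in control (horizontal axis), with control libraries in grey and *HOXA13*-overexpressing libraries in orange. The groups do not overlap in any row. Control replicate 2, drawn as grey squares, is the highest control in most rows and in all 5 genes shown of chromosome 1.

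Several subunits of the chain come as isoforms with known tissue preference, and the libraries held almost only the widely expressed form. *Cox4i1* had 9801, 7761 and 9851 counts in the controls against 13883, 13235 and 9353 in the *HOXA13*-overexpressing libraries, whereas its lung form *Cox4i2* had 5, 1 and 0 counts in the controls against 1, 2 and 0 in the *HOXA13*-overexpressing libraries. The muscle form *Cox6a2* had 1, 3 and 3 counts in the controls against 4, 4 and 0 in the *HOXA13*-overexpressing libraries, and the widely expressed *Cox6a1* was at 105, 103 and 99.7 CPM in control and 108, 119 and 120.3 CPM in *HOXA13*-overexpressing libraries. The muscle form *Cox8b* was at 0 in every library, where 3 counts correspond to between 0.134 and 0.227 CPM. The 7 listed muscle markers summed to between 5.03 and 15.4 CPM in control and between 7.64 and 9.08 CPM in the *HOXA13*-overexpressing group, and none of the 4 tested was called. The highest of them was *Myh6*, with 188, 36 and 68 counts in the controls against 66, 78 and 49 in the *HOXA13*-overexpressing libraries, while *Myog* and *Ckm* had at most 2 and 3 counts in any library.

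The testis forms were also low. *Cox7b2* had 5, 4 and 6 counts in the controls against 5, 3 and 7 in the *HOXA13*-overexpressing libraries. *Cox6b2* was at 7.05, 9.04 and 9.55 CPM in control and 6.60, 7.60 and 6.95 CPM in *HOXA13*-overexpressing libraries and did not pass (log2 fold change -0.27, adjusted p = 0.235), although it had the most negative log2 fold change of the tested members. *Cox8c* had 0, 0 and 0 counts in the controls against 5, 2 and 3 in the *HOXA13*-overexpressing libraries, so that the 10 counts that made it a member came from the *HOXA13*-overexpressing libraries alone. The *Cox7b2* and *Cox8c* values rest on few reads, and floors cover counting error only.

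*Ndufa4l2*, a relative of *Ndufa4* known to be induced by hypoxia, had 14, 5 and 14 counts in the controls against 1, 2 and 0 in the *HOXA13*-overexpressing libraries. Every control library exceeded every *HOXA13*-overexpressing library, though each of the latter was under the floor of 3 counts and 33 of the 36 counts came from the controls. The ratio of the summed counts, control over *HOXA13*-overexpressing, was 9.87 with a wide interval for counting error only (95% exact interval 3.10 to 50.3). It did not pass the filter on low counts. It was called lower beside *Sdhd* without that filter, with DESeq2 and without control replicate 2. It was the one member called lower without *HOXA13* replicate 2 or 3 (adjusted p from 0.00427 to 0.0387 over these 5 fits). Its counts reached the minimum for a member through the controls, where it is high. The calls and the ratio are therefore not taken as support for a fall. *Ndufa4* itself was at 108, 126 and 117 CPM in control and 133, 129 and 129 CPM in *HOXA13*-overexpressing libraries and did not pass (log2 fold change 0.16, adjusted p = 0.134).

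The muscle form *Cox7a1* was at 2.32, 2.58 and 2.48 CPM in control and 2.28, 2.70 and 3.25 CPM in *HOXA13*-overexpressing libraries, while *Cox7a2* was at 70.2, 66 and 69.9 CPM in control and 71.3, 75 and 73.3 CPM in *HOXA13*-overexpressing libraries. *Cox7a2l*, which takes part in joining complexes III and IV, was at 58.6, 69 and 62.5 CPM in control and 70.1, 67.9 and 67.2 CPM in *HOXA13*-overexpressing libraries (log2 fold change 0.11, adjusted p = 0.325). None of the 3 Cox7a genes passed, and *Cox7a1* and *Cox7a2l* overlapped between the groups. *Cox7b*, the widely expressed partner of *Cox7b2*, was at 84.9, 95.4 and 94.5 CPM in control and 102, 101 and 91.2 CPM in *HOXA13*-overexpressing libraries, and *Cox8a*, that of *Cox8b*, was at 129.8, 111 and 125 CPM in control and 103, 122 and 125 CPM in *HOXA13*-overexpressing libraries. The groups overlapped in both.

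The c-ring of ATP synthase is built from identical proteins made by *Atp5g1*, *Atp5g2* and *Atp5g3*. *Atp5g3* was at 245, 244 and 241 CPM in control and 261, 246 and 269.8 CPM in *HOXA13*-overexpressing libraries. *Atp5g1* was at 25.2, 21.3 and 20.1 CPM in control and 21.8, 26.3 and 20.4 CPM in *HOXA13*-overexpressing libraries, and *Atp5g2* was at 0.580, 0.883 and 0.707 CPM in control and 0.863, 0.826 and 0.529 CPM in *HOXA13*-overexpressing libraries. None of the 3 passed. The *Atp5g2* value cannot be set against the others, since 100% of its transcript windows have a copy elsewhere in mm9.

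Calls were uneven over the chromosomes. All 6 members on chromosome 1, among them *Cox5b*, *Ndufa10*, *Ndufb3*, *Ndufs1* and *Sdhc*, were higher, with a median log2 fold change of 0.43. Of the 71 tested members elsewhere 8 were higher (11.3%, against 12.4% of the other placed genes off chromosome 1) and 1 was lower, with a median of 0.12. The other 773 tested genes of chromosome 1 had a median of 0.38, and 49.9% of all tested genes of that chromosome were higher. In single libraries, the median log2 difference of those 773 genes from the control mean was -0.077, 0.12 and -0.035 in control and 0.39, 0.36 and 0.34 in the *HOXA13*-overexpressing libraries. The chromosome 1 members followed with -0.053, 0.18 and -0.12 in control and 0.44, 0.41 and 0.43 in the *HOXA13*-overexpressing libraries.

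Members off chromosome 1 showed a smaller shift of the same sign, with medians of -0.023, 0.022 and -0.010 in control and 0.091, 0.13 and 0.11 in the *HOXA13*-overexpressing libraries. When each chromosome was centred on its own median in each library, none of the 6 chromosome 1 members passed, their median fell to 0.059 and *Sdhc* turned to -0.092, whereas 12 members off chromosome 1 were higher. The 4 members that were gained were *Atp5e*, *Cox6a1*, *Ndufa12* and *Ndufb4*. Chromosome 14, whose 471 tested genes had a median of 0.26, holds no member. The cause of the shift of chromosome 1 was not tested.

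**Figure D3:**
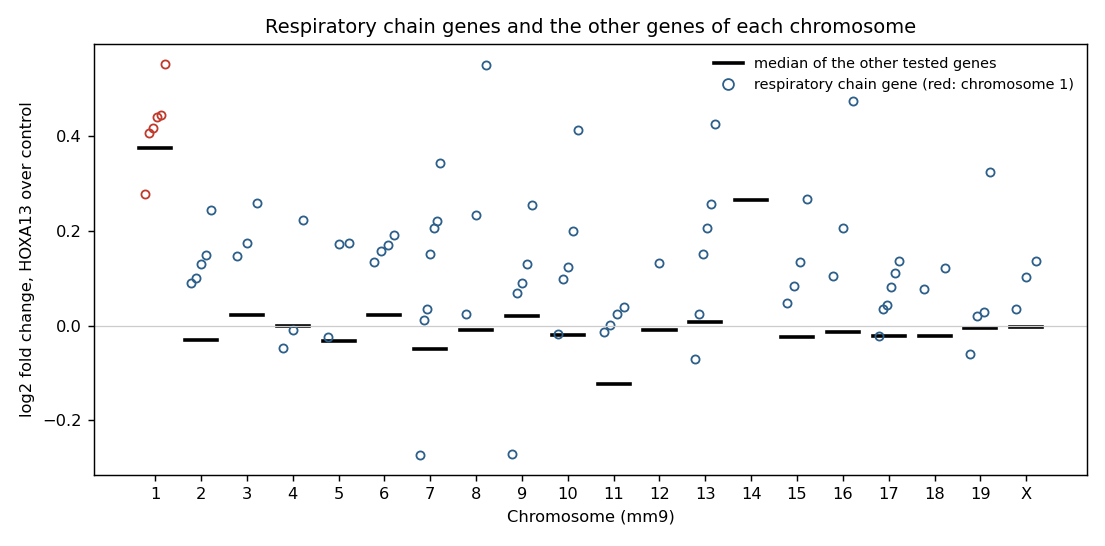
Log2 fold change (*HOXA13*-overexpressing over control) of the 77 tested respiratory chain genes as circles, and the median of all other tested genes of each chromosome as black bars, by mm9 chromosome. The chromosome 1 bar is at 0.38 and 5 of the 6 circles there lie above it, and on most other chromosomes the circles lie mainly above a bar near 0.

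Many respiratory chain genes have processed copies in the genome, and reads that match such a copy equally well can be lost or shared in counting. For each of the 84 symbols, every 75-base window of 1 annotated transcript was looked up in mm9. Of the 84, 53 had no window with an exact copy elsewhere, and 12 of the members had copies for at least 20% of windows. *Atp5g2* (100%), *Atp5l* (85.8%), *Ndufs5* (73.4%) and *Cox7c* (70%) were the most copied and were listed at 1.12, 2.89, 0 and 6.18 RPKM in control, where the median of the other 80 symbols was 69.4 RPKM. Copies and low levels did not always go together. *Atp5h*, *Cox5b*, *Cox7a2l* and *Uqcrb*, with copies for 43.0% to 50.6% of windows, were at 51.9, 40.5, 55.2 and 68.4 RPKM in control, while among the 53 symbols without a copy *Cox8b* and *Cox8c* were at 0. *Ndufs5* had 0 counts in all 6 libraries. The levels of these 4 genes are uncertain, and so is the comparison for *Cox5b* and *Uqcrb* among the called genes, the others of which had copies for at most 3.77% of windows.

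**Figure D4:**
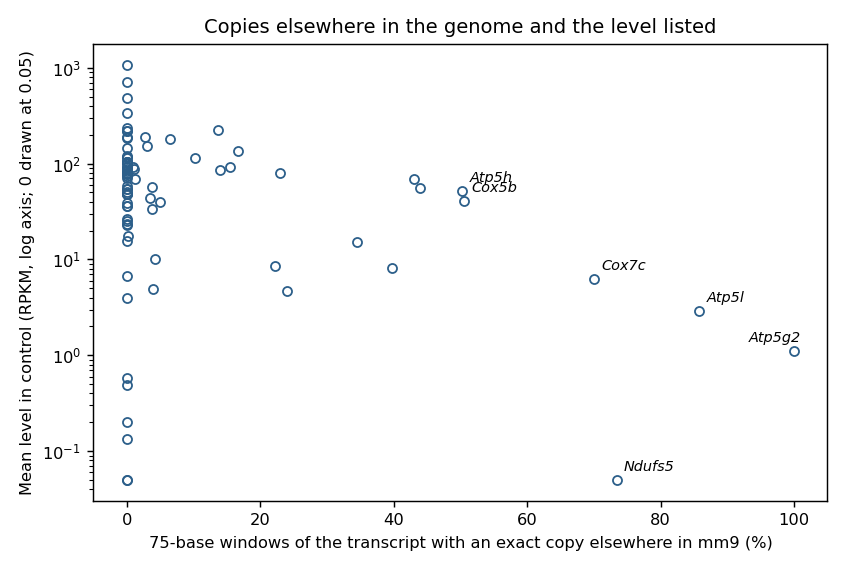
Mean level of each of the 84 symbols in control (RPKM, log axis, with 0 drawn at 0.05) against the share of 75-base windows of its transcript that have an exact copy elsewhere in mm9. The 4 symbols with copies for at least 70% of windows all lie at 6.18 RPKM or lower.

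Genes that work with the chain were read from lists in the same fit. Of 50 tested assembly factors 8 were higher (16%, against 14.4% of all genes) and 2 lower (median log2 fold change 0.056). With each chromosome centred or with library size alone 5 were higher, without control replicate 3 also 5, and without a *HOXA13*-overexpressing library 3 to 4. *Tmem70*, which helps to build ATP synthase and lies on chromosome 1, rose from 37.7 ± 1.94 to 111 ± 4.69 CPM (SD, n = 3; log2 fold change 1.56, SE 0.072, adjusted p = 1.22e-05), about 3 times its control level and more than any tested member. *Sdhaf4* and *Bcs1l*, assembly factors of complexes II and III on the same chromosome, rose by 0.73 and 0.45 on the log2 scale. *Ecsit*, a complex I assembly factor (log2 fold change -0.54, adjusted p = 0.00495), and *Cox11*, which brings copper to complex IV (-0.36, adjusted p = 0.0304), were lower.

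Of 19 genes for electron carriers and further subunits 5 were higher (26.3%, against 14.4% of all genes) and 1 lower (5.26%, against 13.3%; median 0.075), and 2 to 4 were higher without a *HOXA13*-overexpressing library. The subunits *Cyc1* and *Ndufab1*, which the symbol rule leaves out, did not pass (log2 fold change -0.054, adjusted p = 0.502 for *Cyc1*, cytochrome c1 of complex III; log2 fold change 0.066, adjusted p = 0.836 for *Ndufab1*, the acyl carrier of complex I). *Adck3*, *Coq9* and *Coq3* of ubiquinone synthesis rose by 0.92, 0.43 and 0.34 on the log2 scale, of which *Adck3* lies on chromosome 1. *Cyct*, the testis cytochrome c, was lower, from 2.64 ± 1.44 to 0.640 ± 0.103 CPM (SD, n = 3; log2 fold change -2.08, adjusted p = 0.00966). Its highest value was in control replicate 1.

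Of 21 tested regulators of mitochondrial genes 4 were higher (19%, against 14.4% of all genes) and 2 lower (9.52%, against 13.3%; median 0.045), and 1 to 3 were higher without a *HOXA13*-overexpressing library. *Gabpa*, the DNA-binding subunit of GABP, rose from 166 ± 8.76 to 210.4 ± 10.4 CPM (SD, n = 3; log2 fold change 0.34, adjusted p = 0.00784), and *Esrrb*, an oestrogen-related receptor that is also a stem cell marker, from 354 ± 137 to 606 ± 8.61 CPM (SD, n = 3; log2 fold change 0.78, adjusted p = 0.0349). Control replicate 2 was at 511 CPM for *Esrrb*, against 257 and 294 CPM in the other controls. *Nrf1* and *Tfam*, the activator of mitochondrial DNA transcription, did not pass (log2 fold change 0.11, adjusted p = 0.262 for *Nrf1*; log2 fold change -0.018, adjusted p = 0.867 for *Tfam*). The coactivator *Ppargc1b* was lower, from 3.18 ± 1.05 to 0.577 ± 0.170 CPM (SD, n = 3; log2 fold change -2.44, adjusted p = 0.00181).

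The TCA cycle list had 4 of 18 genes higher (22.2%, against 14.4% of all genes) and 1 lower (median 0.045), and 2 were higher without *HOXA13* replicate 1. *Pdhb* and *Sucla2*, both on chromosome 14, and *Fh1*, on chromosome 1, rose by 1.00, 0.85 and 0.48 on the log2 scale, and *Dlst* was lower (log2 fold change -0.39, adjusted p = 0.00605). Of 76 tested mitochondrial ribosomal protein genes 11 were higher (14.5%, against 14.4% of all genes) and 2 lower (2.63%, against 13.3%), with a median of 0.0099. Among the higher ones was *Mrpl15* on chromosome 1 (0.72, adjusted p = 0.000772). With library size alone the balance turned to 7 higher and 9 lower, and without control replicate 3 or a *HOXA13*-overexpressing library 5 to 6 were higher. The 93 tested genes with Rpl or Rps symbols include the Rps6k kinases beside the cytosolic ribosomal proteins. Of these 93, 15 were higher (16.1%, against 14.4% of all genes) and 2 lower (2.15%, against 13.3%). These counts depend on the setting, with 5 higher and 6 lower with library size alone, 9 higher with the length trend removed, 8 with the replicate block, and 4 to 5 without control replicate 3 or any one *HOXA13*-overexpressing library. Their median of 0.12 lay beside the 0.13 of the respiratory chain members. After removal of a trend on transcript length the members' median was 0.10.

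Of 20 tested glycolysis genes 8 were lower (40%, against 13.3% of all genes) and 3 higher (15%, against 14.4%). Without a *HOXA13*-overexpressing library 5 to 6 were lower and 1 to 2 higher. The median log2 fold change was -0.16, and the difference from the respiratory chain list was not tested. *Ldha*, which makes lactate, fell from 976 ± 64.9 to 681 ± 23.7 CPM (SD, n = 3; log2 fold change -0.52, adjusted p = 0.00122), and *Tpi1*, triose phosphate isomerase, from 271 ± 30.2 to 184 ± 12.1 CPM (SD, n = 3; log2 fold change -0.55, adjusted p = 0.00357). The lactate exporter *Slc16a3* was lower (log2 fold change -3.45, adjusted p = 0.00273) from a control level of 108.7 ± 77.1 CPM, and the glucose transporter *Slc2a3* was higher, from 926 ± 344 to 1841 ± 54.5 CPM (SD, n = 3; log2 fold change 0.99, adjusted p = 0.0115). Both had a wide spread among the control libraries. The remaining genes called higher were *Pfkp*, from 89.2 ± 4.61 to 146 ± 10.9 CPM (SD, n = 3, log2 fold change 0.71, adjusted p = 0.000493), and *Hk1* (log2 fold change 0.41, adjusted p = 0.0244). The summed level of the list overlapped between the groups, at 7024 to 7390 CPM in control and 6947 to 7194 CPM in the *HOXA13*-overexpressing group.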

How the data were processed

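RNA-seq libraries of 3 control and 3 *HOXA13*-overexpressing KH2 mESC cultures were analysed, grouped by sample title. Per the labels, the authors enriched mRNA with oligo-dT, made directional libraries and sequenced them on an Illumina NextSeq. Reads of 75 bases were mapped to mm9 and counted per gene. The submitters' processing notes name bcl2fastq 2.17, TopHat2 2.0.14 and HTSeq 0.6.1p1. The deposited counts are whole numbers per gene, not normalized, in 1 table per library. The annotation, counting mode and strand setting used for counting are not given in the sources used here, so overlapping genes and copies can share or lose reads.

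The tests were run in R 4.3.3 with edgeR 4.0.16: filterByExpr with its defaults (minimum count 10, minimum total 15), TMM factors, glmQLFit and glmQLFTest without covariates, and Benjamini-Hochberg adjustment over the 13846 genes tested, with calls at an adjusted p under 0.05. The code was tested on simulated counts first. Standard errors are the log2 fold change divided by the root of F. CPM use the TMM-scaled library sizes, and 3 counts, taken as the floor, equal 0.134 to 0.227 CPM. RPKM are CPM per kilobase of the first annotated transcript. Ratios of low counts have exact 95% binomial intervals. Positions are from GENCODE vM1 on NCBIM37 (mm9).

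The members and all gene lists were chosen with earlier results of these data known. Named with values in every library were, by rule, the 6 largest rises and 6 largest falls among called members, all Sdh genes, the member with the highest CPM in each complex and isoform groups. Of each other list up to 3 called genes in each direction could be named, mostly by mean or fold change, and not all were. *Cyc1*, *Ndufab1*, *Nrf1*, *Tfam* and other members were named outside this rule. A gene that the rule names is not reported here.

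Tried as alternatives were size factors by RLE, scaling by library size alone, no filter, at least 10 counts in every library, DESeq2 1.42.0, limma-voom (limma 3.58.1), robust estimation, the replicate number as a block, each library left out, each chromosome centred, and removal of a trend on transcript length. Figures were drawn with matplotlib 3.10.9.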

Additional observations from a re-analysis of the deposited data

How the results depend on the processing

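Of the 14 members called higher, 4 (*Cox4i1*, *Cox6b1*, *Ndufb8* and *Uqcrb*) were called in all 16 alternatives, and 6, *Cox5b* included, in every fit that left out a library. Library size alone gave 9 members higher, with 0 in complex II, 1 in complex III and 0 in ATP synthase, and a members' median log2 fold change of 0.059, while the median of all genes moved from 0.00 to -0.073. Without the filter on low counts and with DESeq2, 2 members were lower, 1 of them in complex I, and 1 was higher in complex III. Robust estimation gave 2 higher in ATP synthase. With each chromosome centred, 2 were higher in ATP synthase and 0 in complex II, and *Sdhc* turned to -0.092 (adjusted p = 0.325). Removal of the length trend gave 1 higher in complex III and a median of 0.10. Leaving out each library in turn gave 6 to 18 members higher and 0 to 2 lower. Over these fits complex I had 2 to 8 higher and 0 to 1 lower, complex II 0 to 1 higher and 0 to 1 lower, complex III 1 to 2 higher and ATP synthase 0 to 2 higher. The causes of these differences were not tested.

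The replicate numbers shared by the groups did not pair the libraries. The deviations of same-numbered libraries from their group means correlated at -0.0154, -0.0454 and 0.0182. With the replicate number as a block, 9 members were higher, with 0 in complex II, 1 in complex III and 0 in ATP synthase. At these depths a gene with under 3 counts in a library, such as *Cox8b*, cannot be told from one that is off.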
